A study of Homo sapiens with 2 samples.

Results

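Splicing factors and the proteins of the spliceosome's small nuclear ribonucleoprotein particles (snRNPs) were followed in GM06690, a human B-lymphoblastoid line made immortal with Epstein-Barr virus. The members were the genes whose annotated symbol belongs to the SRSF, HNRNP, SF3A, SF3B, SNRP, numbered LSM, U2AF or PRPF families, read from probe sets with exactly 1 symbol. This gave 77 genes by 169 probe sets, of 16716 genes by 29493 such probe sets measured in all. Of the 77 members 76 are protein-coding genes and 1, HNRNPA3P1, is a pseudogene. The study holds 1 group of 2 samples, replicates 1 and 2 of cells grown in medium with fetal calf serum, each hybridised to 1 Human Genome U133 Plus 2.0 array. The titles write the line as GM06690 and the growth protocol as GM06990. With 1 group and no contrast, the values are described and not tested. The labels do not say whether the samples were grown separately, so the difference between the arrays may be technical only.

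Splicing removes introns from pre-messenger RNA. The U1 snRNP marks the 5′ splice site, the U2AF proteins mark the 3′ splice site, and the U2 snRNP with its SF3A and SF3B proteins binds the branch point. The U4, U6 and U5 snRNPs then join as a tri-snRNP that carries most of the PRPF proteins, and the catalytic centre forms. SR proteins mostly promote the use of exons to which they bind, whereas the heterogeneous nuclear RNPs (hnRNPs) coat nascent transcripts and often repress exons. In lymphocytes the exon choice of the CD45 messenger RNA is a well-studied example, in which HNRNPLL and HNRNPL take part. These proteins are needed by all cells that splice, so most are known as broadly expressed.

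Signals are given as log2 of the deposited RMA intensity, in replicate 1 and then replicate 2, with each gene represented by its brightest probe set. Probe sets differ in affinity, so signals of different genes are not ranks of transcript abundance. As background level served the 95th percentile, on each array, of 94 genes listed as restricted to other tissues (brain, liver, eye, muscle and others). It lay at 5.75 in replicate 1 and 5.73 in replicate 2. The 5 reference genes above it were HPX, MBP, TNNT3, SFTPB and KRT10. The highest mean signal in the list was 11.24, so not all of its genes can be taken as silent in these cells. Genes are called above background where both arrays gave more than that. Markers went with the labelled cell type. All 6 measured B-cell markers were above background, such as MS4A1 (CD20) at 13.12 and 13.26. Of the markers of other cells, 0 of 5 T-cell, 0 of 4 NK-cell and 0 of 5 myeloid genes were above it, and 1 of 4 fibroblast genes (DCN).

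Nearly every member was above background on both arrays. This held for 74 of 77 genes (96.1%), whereas 51.7% of all measured genes were above background. The classes of SF3A and SF3B subunits (9 of 9), U2AF subunits (3 of 3), Sm ring proteins (7 of 7), U1 and U2 snRNP proteins (4 of 4) and LSM proteins (13 of 13) were wholly above it. The SR proteins had 9 of 10 above, the hnRNPs 19 of 20 and the PRPF proteins 10 of 11. These counts depend on the level chosen. At the 99th percentile 50 of 77 members were above it, against 12.2% of all genes. Among them were 2 of 11 PRPF proteins, 5 of 9 SF3A and SF3B subunits and 7 of 13 LSM proteins. With 94 reference genes that level, 10.37 and 10.43, was set by the few brightest of them. The median of the reference genes was 4.06, so not passing it does not mean a signal near theirs. At the 95th percentile the members not above background were SRSF12, PRPF40B and the pseudogene HNRNPA3P1. The median log2 signal was 11.30 over the members and 6.10 over all genes, or 9.05 over the 8641 genes above background. The calls did not differ between the arrays for any of the 77 genes. Of the members 31 were read by 1 probe set and 46 by several, up to 6.

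**Figure D1:**
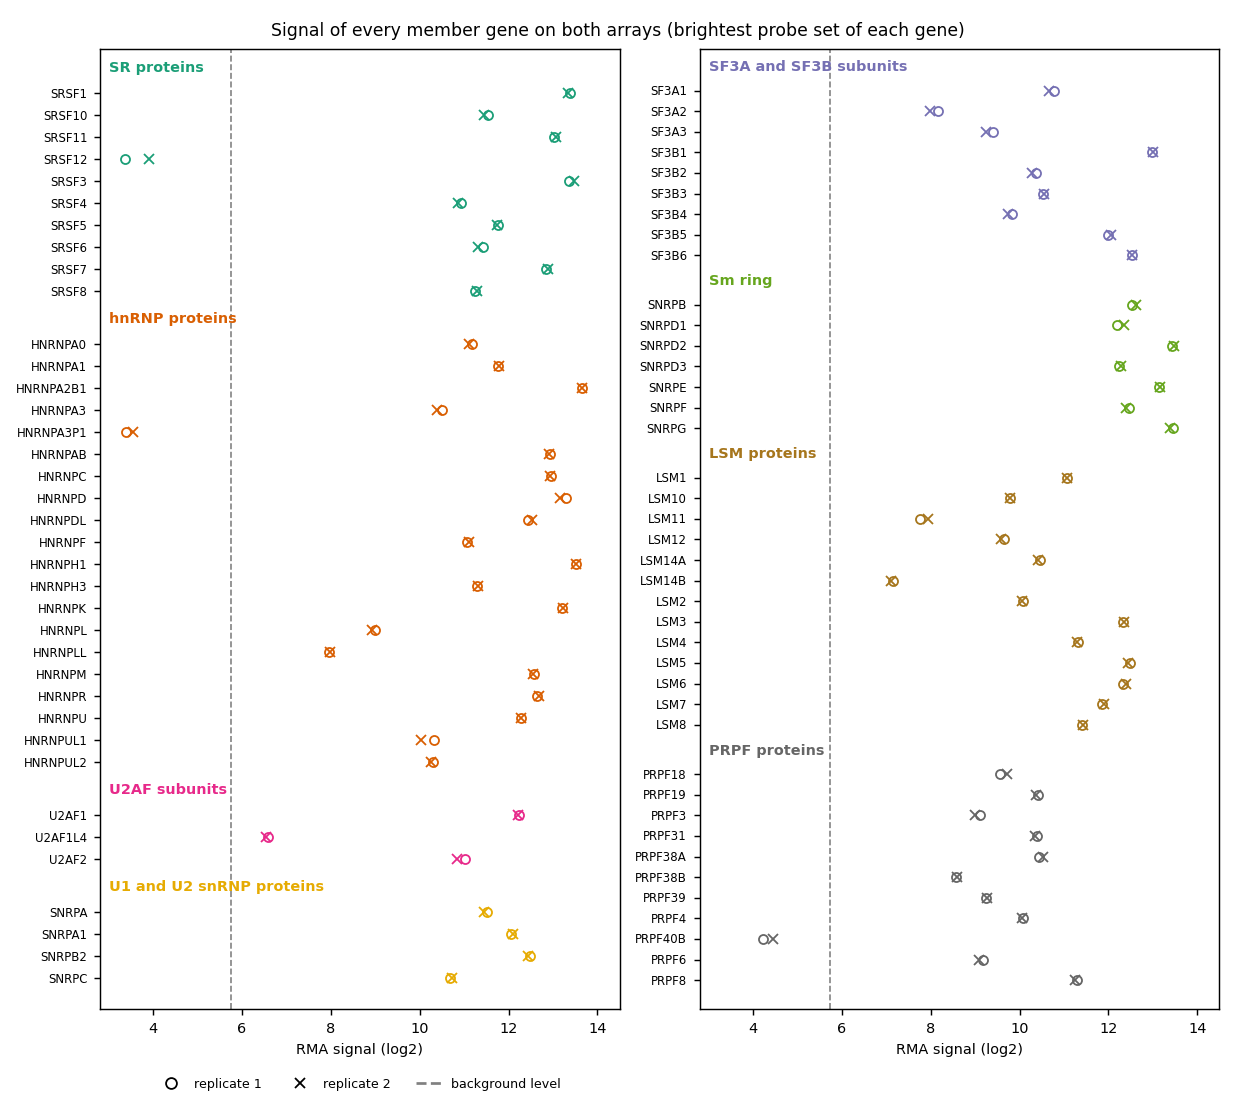
Log2 RMA signal (x axis) of each of the 77 member genes (rows, grouped by class), with an open circle for replicate 1, a cross for replicate 2 and a dashed line at the mean background level of the 2 arrays. All genes except SRSF12, HNRNPA3P1 and PRPF40B lie right of the line, and the 2 marks of a gene nearly coincide.

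SR proteins carry an RNA recognition motif and a tail rich in arginine and serine. SRSF1, the founding member, had signals of 13.39 and 13.34. SRSF3, the smallest SR protein, stood at 13.37 and 13.48, and SRSF7, its close relative with a zinc knuckle, at 12.83 and 12.89. Both arrays placed each of these genes far above background. SRSF5 was read at 11.75 and 11.74, but 1 of its 3 probe sets was below background on both arrays. The other members SRSF4, SRSF6, SRSF8, SRSF10 and SRSF11 had mean signals between 10.90 and 13.04. SRSF8 is a retrogene, an intronless copy derived from SRSF2. SRSF12 is a relative of SRSF10 that is known to act against other SR proteins. It had 3.36 and 3.91 by its only probe set, below background on both arrays, whereas all 5 probe sets of SRSF10 were above. SRSF2 and SRSF9 were matched only by probe sets with a further symbol and are therefore no members.

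The hnRNP class was the most numerous, with 20 genes and 60 probe sets. HNRNPA1, which is known for repressing exons, had 11.77 and 11.80. Its relative HNRNPA2B1, which also takes part in RNA transport, stood at 13.65 and 13.66. HNRNPC, which binds runs of uridine, stood at 12.94 and 12.93. These signals differed by at most 0.03 between the arrays. HNRNPK, which prefers cytidine-rich RNA, had 13.20 and 13.22, and HNRNPU, a large scaffold protein that also binds chromatin, had 12.28 on both arrays. HNRNPL, which binds CA-rich RNA, had 8.98 and 8.92 by 1 probe set. HNRNPLL, its lymphocyte relative, had 7.95 and 7.97. That signal came from 1 of 3 HNRNPLL probe sets, and the others stood at 4.02 and 4.24 and at 4.06 and 4.61. The remaining members of the class, with the exception of HNRNPA3P1, had mean signals from 10.18 (HNRNPUL1) to 13.52 (HNRNPH1).

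Some members of this and other classes have named pseudogenes, HNRNPA1 the most, whereas others such as HNRNPA2B1 have none. The gene table holds 75 pseudogenes named after HNRNPA1, 17 after HNRNPA3 and 9 after HNRNPC, and likewise 20 each after SNRPC and SNRPG and 11 after SNRPE. In all, 37 members have at least 1 such copy, 218 copies together. The like share over all measured genes is not given here. Probes may read parts of such copies, so the single values of these genes are uncertain. HNRNPA3P1, the only pseudogene among the members, had 3.39 and 3.54 and was below background on both arrays. HNRNPA3 itself had 10.51 and 10.39, and all 3 of its probe sets were above background.

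At the branch point, SF3B1 had signals of 12.98 and 13.02, and all 4 of its probe sets were above background. SF3B1 holds the branch point helix and is the splicing factor most often mutated in chronic lymphocytic leukaemia. SF3A1, a scaffold of the SF3A trimer, had 10.79 and 10.66, and SF3B4, which contacts the intron upstream of the branch point, had 9.84 and 9.73. SF3B6, the subunit that touches the branch point adenosine, had 12.53 and 12.54. The dimmest probe set that stood for a gene of the class was that of SF3A2, at 8.17 and 7.97, above background on both arrays. SF3A3, SF3B2, SF3B3 and SF3B5 had mean signals between 9.32 and 12.02, with 1 of 2 probe sets above background in both SF3B2 and SF3B3. At the 3′ splice site U2AF1, which reads the terminal AG, had 12.23 and 12.21. U2AF2, which binds the pyrimidine tract, had 11.03 and 10.84, with 2 of 3 probe sets above background. U2AF1L4, a relative of U2AF1, had 6.57 and 6.53, the signals nearest to background among the 74 members above it.

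Sm proteins form the ring around the spliceosomal RNAs. SNRPB, SNRPD1 and SNRPG had 12.53 and 12.62, 12.20 and 12.36, and 13.45 and 13.39. All 10 probe sets of the class were above background, and the mean signals of its 7 genes ran from 12.27 to 13.46. SNRPN, the imprinted relative of SNRPB known from brain, was matched only by probe sets with further symbols and is no member. Among the proteins particular to U1, SNRPA (U1-A) had 11.52 and 11.45 and SNRPC (U1-C) had 10.68 and 10.72. Among those of U2, SNRPA1 (U2-A′) had 12.05 and 12.11 and SNRPB2 (U2-B″) had 12.48 and 12.44. A further SNRPB2 probe set was below background, at 4.42 and 4.58.

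LSM proteins form related rings. LSM2 to LSM8 bind the U6 RNA in the nucleus, and LSM1 replaces LSM8 in the cytoplasmic ring that promotes decapping of messenger RNA. LSM1 and LSM8, the subunits that tell the rings apart, had 11.06 and 11.08 and 11.42 and 11.43. LSM2, shared by both rings, had 10.08 and 10.05. The mean signals of LSM3 to LSM7 ran from 11.30 (LSM4) to 12.45 (LSM5). All 8 genes of the rings were above background by each of their probe sets. LSM10 and LSM11 replace 2 Sm proteins in the U7 snRNP, which processes histone messenger RNA. LSM10 had 9.80 and 9.78. LSM11 had 7.75 and 7.94 by 1 probe set, and its other probe set was below background at 5.09 and 5.23. Of the proteins tied to P-bodies, LSM14A had 3 of 3 probe sets above background and LSM14B 1 of 3, with 7.15 and 7.11 for the brightest.

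PRPF proteins serve the tri-snRNP and the catalytic steps, and mutations of several cause inherited retinal degeneration. PRPF8, the scaffold of the catalytic centre, had 11.28 and 11.26. PRPF31, a U4/U6 protein, had 10.39 and 10.35 with 2 of 3 probe sets above background, and PRPF19, the ubiquitin ligase of the complex that carries its name, had 10.43 and 10.36. These values were above background in each replicate. At the 99th-percentile level of 10.37 and 10.43, PRPF31 and PRPF19 were not above on both arrays. PRPF18, which acts in the later catalytic step, had 9.56 and 9.71, but 2 of its 3 probe sets were not above background. The mean signals of the tri-snRNP proteins PRPF3, PRPF4 and PRPF6 were 9.05, 10.06 and 9.14. PRPF38A, which joins the spliceosome before activation, had 10.48, PRPF38B had 8.58, and PRPF39, which is tied to U1, had 9.26. Each of these 6 genes was above background by all its probe sets. PRPF40B had 4.22 and 4.45 by 1 probe set and was below background on both arrays. PRPF4B was not analysed here.

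Probe sets of a gene often gave different signals. Of the 169 member probe sets 146 (86.4%) were above background, against 47% of all probe sets with 1 symbol. Of the 46 members with several probe sets 30 had all of them above background and 16 had some. For comparison, among all genes with several probe sets and at least 1 above background, 2386 of 4773 had all above. The share among these members was 65.2%. The range between the probe sets of a member had a median of 3.21 and reached 9.46 on the log2 scale. For all 4773 genes the median range was 2.57. The parts of the members' brighter signals and of the number of probe sets per gene in this difference were not tested.

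The members with the largest range were HNRNPD, HNRNPC, HNRNPDL, HNRNPM, HNRNPH1 and SF3B6. HNRNPD, which binds AU-rich elements, was read from 3.77 to 13.23 by 6 probe sets. The range of HNRNPC ran from 4.18 to 12.94 over 5 probe sets and that of HNRNPDL, a relative and direct neighbour of HNRNPD on chromosome 4, from 3.77 to 12.47 over 6. In each of these 3 genes a single probe set was below background. HNRNPM was read from 4.03 to 12.56 with 2 of 5 probe sets below background. HNRNPH1, which binds runs of G, spanned 5.06 to 13.52 over 4 probe sets, and SF3B6, which contacts the branch point, spanned 4.12 to 12.53 over 2. For each of these 6 genes, a dim and a bright probe set stood on opposite sides of the background level.

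**Figure D2:**
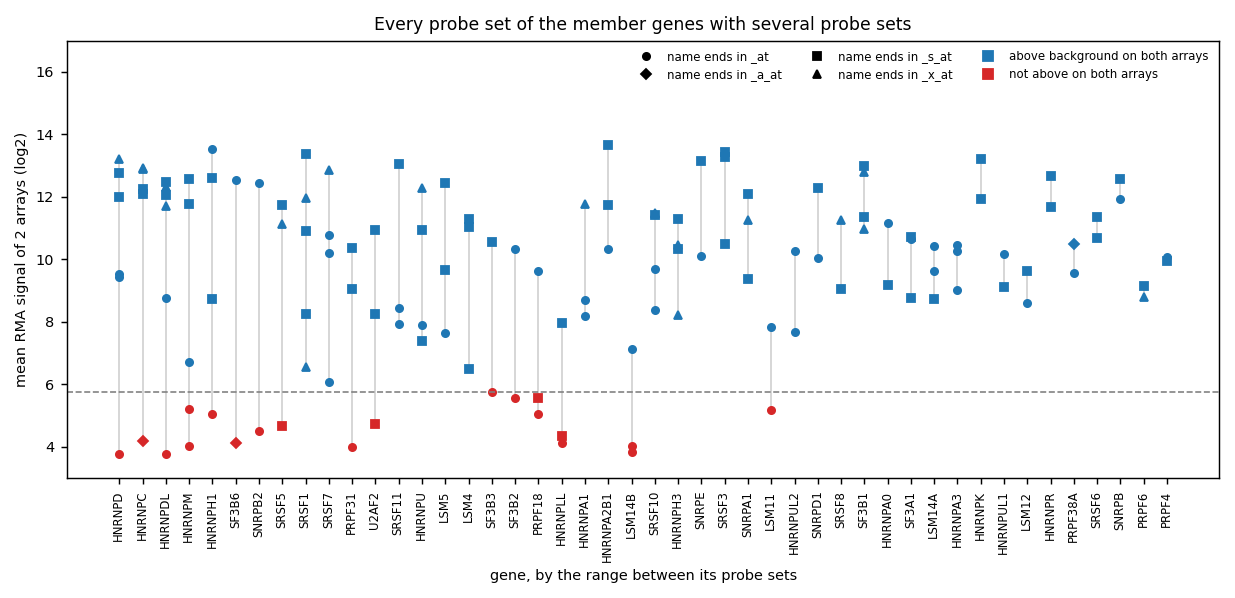
Mean log2 signal over both arrays (y axis) of every probe set of the 46 member genes with several probe sets (x axis, sorted by range), with the marker shape for the ending of the probe set name, blue for above background on both arrays, red for not, and a dashed line at the background level. The red marks belong to 16 genes, each with at least 1 blue mark.

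The kind of probe set went with the call. All 22 member probe sets ending in _x_at, which hold probes that may bind unrelated transcripts, were above background, and so were 67 of 71 ending in _s_at, whose probes match more than 1 transcript. Of the plain _at probe sets 56 of 73 were above (76.7%), and of those ending in _a_at 1 of 3. Over all probe sets with 1 symbol the shares were 57.1% for _x_at, 61.0% for _s_at, 40.1% for _at and 25.9% for _a_at. Where the probe set was designed on a curated RefSeq messenger RNA (an NM accession), 48 of 51 member probe sets were above background (94.1%). For probe sets with another accession this was 69 of 84 (82.1%). Over all probe sets with 1 symbol these shares were 51.5% and 44.0%. Of the member probe sets without an accession 29 of 34 were above background (85.3%), against 49.4% of all such probe sets.

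The replicates differed little. Over the 74 members above background the median difference, replicate 2 minus replicate 1, was -0.01, against -0.02 over all 8641 genes above background, with 34 members higher in replicate 2 and 40 higher in replicate 1. The median SD of the 2 arrays was 0.031 for the members and 0.049 for all these genes. The members' signals were also brighter, with medians of 11.30 and 9.05, and the part of brightness in the smaller SD was not tested. Differences larger than 0.5 were found in 0 of 74 members and in 1.41% of all genes above background on either array. SRSF12, below background on both arrays, differed by 0.55.

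Among the 146 member probe sets above background on both arrays, the 5 with the largest difference in each direction are given; some probe sets below background differed more. The 5 higher in replicate 1 were those of HNRNPUL1 (10.33 and 10.04, a difference of -0.30), LSM14A (9.75 and 9.53, -0.23), SF3A2 (-0.19), U2AF2 (-0.19) and HNRNPK (12.02 and 11.84, -0.18). The 5 higher in replicate 2 were those of HNRNPM (6.48 and 6.92, a difference of 0.44), SRSF7 (5.97 and 6.16, 0.19), LSM11 (0.19), SF3B1 (10.88 and 11.05, 0.18) and HNRNPH3 (8.13 and 8.30, 0.17). The HNRNPM, SRSF7, SF3B1, HNRNPH3, LSM14A and HNRNPK probe sets were not the brightest of their genes. The brightest HNRNPM probe set differed by -0.01, that of SF3B1 by 0.04 and that of HNRNPK by 0.01. Of 38 members with at least 2 probe sets above background, the 2 brightest moved the same way in 23. The like share over all genes is not given here, so nothing is read from this count. Among the classes, the Sm ring had 5 of 7 genes higher in replicate 2 and the U2AF subunits 3 of 3 higher in replicate 1, with differences from -0.19 to -0.02. The SF3A and SF3B subunits went both ways, with 4 of 9 higher in replicate 2. These classes are small and were read on the same pair of arrays, so their directions were not tested. The share of all genes above background going each way is not given here, and their median difference was -0.02.

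**Figure D3:**
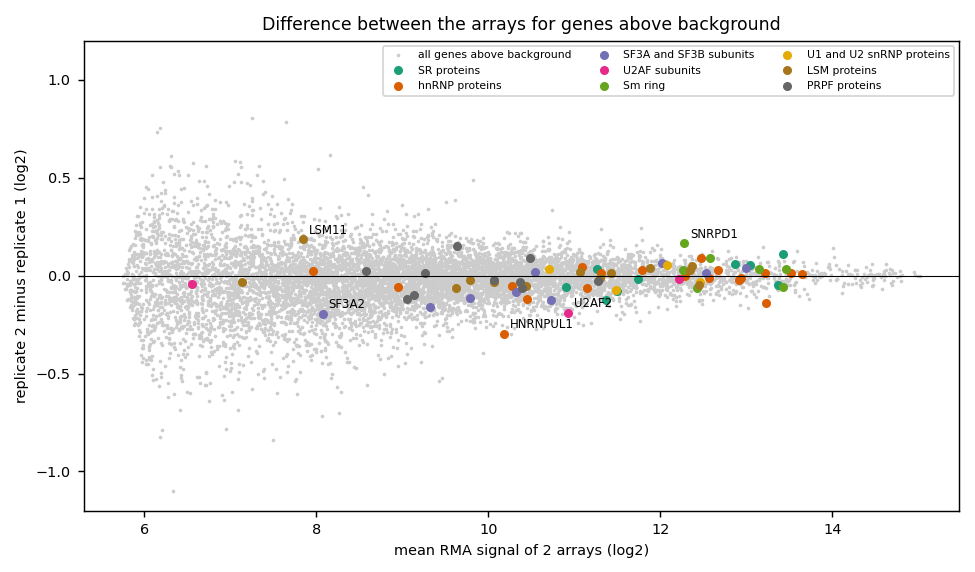
Difference between the arrays in log2 signal, replicate 2 minus replicate 1 (y axis), against the mean of both (x axis), for all 8641 genes above background (grey) and the 74 members (coloured by class). The members lie between -0.30 and 0.19, and the grey cloud narrows toward bright genes.

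Promoter sequence was not used to choose the members, and was read from a RefSeq table (GRCh38.p14) that gives the bases before each gene's annotated start. Of the 76 protein-coding members 68 had an entry, as did 7150 protein-coding genes above background, 4746 not above it and 15843 in all. The 250 bases before the start were searched on both strands for 8 motifs. These were the TATA box, searched as TATAAA, the CCAAT box, searched by these letters, and the core that ETS factors such as GABPA bind, CCGGAAG. The others were the SP1 motif, GGGCGG, the cyclic AMP response element (CRE), TGACGTCA, the E-box, CACGTG, the YY1 motif, AAGATGGC, and the NRF1 motif, GCGCATGC. No motif contains another, and a match is only a run of letters.

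Among the 8 motifs, the ETS core had the largest difference in share between members and all genes above background. It was in 22 of 68 member promoters (32.4%) and in 25 of 92 promoters of the other splicing genes listed further below (27.2%). The share was 18.5% over the promoters of all genes above background, 5.04% over those not above and 11.8% over all. The CCAAT box was in 44.1% of member promoters, 36.8% of those of genes above background and 34.5% of all, and the TATA box in 8.82%, 5.19% and 9.23%. The SP1 motif was in 60.3% of member promoters, against 68.2% of those of genes above background and 56.0% of all. The CRE, rare in general, was in 0 of 68 member promoters, against 3.38% of those of genes above background and 2.32% of all. The E-box was in 8.82% of member promoters, 9.47% of those of genes above background and 7.84% of all, the YY1 motif in 1.47%, 2.08% and 1.39%, and the NRF1 motif in 7.35%, 5.27% and 3.70%. These shares describe the letters of annotated windows, without a test.

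The ETS core was unevenly spread over the classes. It was in the promoters of 6 of 8 SF3A and SF3B genes (SF3A1, SF3A2, SF3A3, SF3B2, SF3B4 and SF3B6), 3 of 4 U1 and U2 snRNP genes (SNRPA1, SNRPB2 and SNRPC) and 4 of 6 Sm ring genes (SNRPB, SNRPD2, SNRPE and SNRPG). In the other classes it was in 3 of 18 hnRNP, 2 of 10 SR, 1 of 3 U2AF, 1 of 10 LSM and 2 of 9 PRPF promoters. The CCAAT box was in 12 of 18 hnRNP, 6 of 9 PRPF, 5 of 10 LSM, 2 of 4 U1 and U2 snRNP, 2 of 6 Sm ring, 2 of 10 SR, 1 of 8 SF3A and SF3B and 0 of 3 U2AF promoters. The windows of SNRPE and SNRPG hold the gene's own initial codons, 187 and 153 bases before the table's start, so they are not upstream of the whole gene. Without both, the counts were 2 of 4 for the Sm ring and 20 of 66 for all members. The end of the ETS core nearest to the start lay a median of 42.5 bases before it in the members, against 46 in all genes above background.

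The promoters below show the ETS core, in capitals, in 2 SF3 genes, 2 snRNP genes and HNRNPLL. Beside them stand the 2 protein-coding members not above background, which have none. With the core in 22 of 68 member promoters, most members above background lack it too, such as SRSF1, SRSF3 and SNRPD3. Each printed promoter runs 5′ to 3′ along the gene's strand and ends at the base before its start.
SF3A3 promoter, chr1:37990023-37990272, minus strand: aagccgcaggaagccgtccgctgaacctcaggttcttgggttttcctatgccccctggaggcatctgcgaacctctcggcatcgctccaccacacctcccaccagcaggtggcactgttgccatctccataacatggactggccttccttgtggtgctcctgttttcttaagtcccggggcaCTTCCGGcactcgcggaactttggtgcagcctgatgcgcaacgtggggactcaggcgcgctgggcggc
SF3B4 promoter, chr1:149927804-149928053, minus strand: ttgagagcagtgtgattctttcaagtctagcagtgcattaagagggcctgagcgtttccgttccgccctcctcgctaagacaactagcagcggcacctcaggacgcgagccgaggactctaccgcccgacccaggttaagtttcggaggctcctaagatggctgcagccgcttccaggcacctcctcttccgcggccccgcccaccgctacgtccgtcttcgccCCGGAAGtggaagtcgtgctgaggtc
SNRPB promoter, chr20:2470790-2471039, minus strand: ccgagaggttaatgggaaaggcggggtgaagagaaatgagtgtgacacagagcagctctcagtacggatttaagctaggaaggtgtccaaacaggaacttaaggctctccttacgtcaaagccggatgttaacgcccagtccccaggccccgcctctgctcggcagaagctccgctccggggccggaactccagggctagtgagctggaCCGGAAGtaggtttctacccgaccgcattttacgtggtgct
SNRPB2 promoter, chr20:16729776-16730025, plus strand: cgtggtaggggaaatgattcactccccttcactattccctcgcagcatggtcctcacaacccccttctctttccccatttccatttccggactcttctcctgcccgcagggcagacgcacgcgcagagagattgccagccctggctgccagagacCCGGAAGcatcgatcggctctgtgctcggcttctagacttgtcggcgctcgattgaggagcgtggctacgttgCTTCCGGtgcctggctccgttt
HNRNPLL promoter, chr2:38602929-38603178, minus strand: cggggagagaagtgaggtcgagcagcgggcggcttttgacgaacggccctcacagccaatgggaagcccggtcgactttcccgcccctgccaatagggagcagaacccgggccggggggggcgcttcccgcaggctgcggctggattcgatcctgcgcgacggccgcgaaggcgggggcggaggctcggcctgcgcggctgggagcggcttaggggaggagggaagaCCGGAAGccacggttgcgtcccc
SRSF12 promoter, chr6:89118072-89118321, minus strand: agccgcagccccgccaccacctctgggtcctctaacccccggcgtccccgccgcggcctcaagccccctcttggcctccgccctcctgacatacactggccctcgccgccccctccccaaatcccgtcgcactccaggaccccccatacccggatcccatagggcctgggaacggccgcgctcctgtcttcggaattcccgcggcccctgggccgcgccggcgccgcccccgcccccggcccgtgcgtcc
PRPF40B promoter, chr12:49623311-49623560, plus strand: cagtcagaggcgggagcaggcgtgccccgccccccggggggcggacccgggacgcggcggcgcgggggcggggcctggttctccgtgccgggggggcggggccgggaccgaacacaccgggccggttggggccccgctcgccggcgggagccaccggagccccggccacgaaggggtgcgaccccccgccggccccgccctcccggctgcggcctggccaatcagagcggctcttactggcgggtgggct
SF3A3, SF3B4, SNRPB and HNRNPLL hold 1 core each, 61, 19, 34 and 16 bases before the start, and SNRPB2 holds 2, the nearer 15 bases before it. The promoters of SRSF12 and PRPF40B hold 28 and 34 CG dinucleotides, more than the member median of 23 and the median of 11 over genes not above background. Over genes above background the median was 21.

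**Figure D4:**
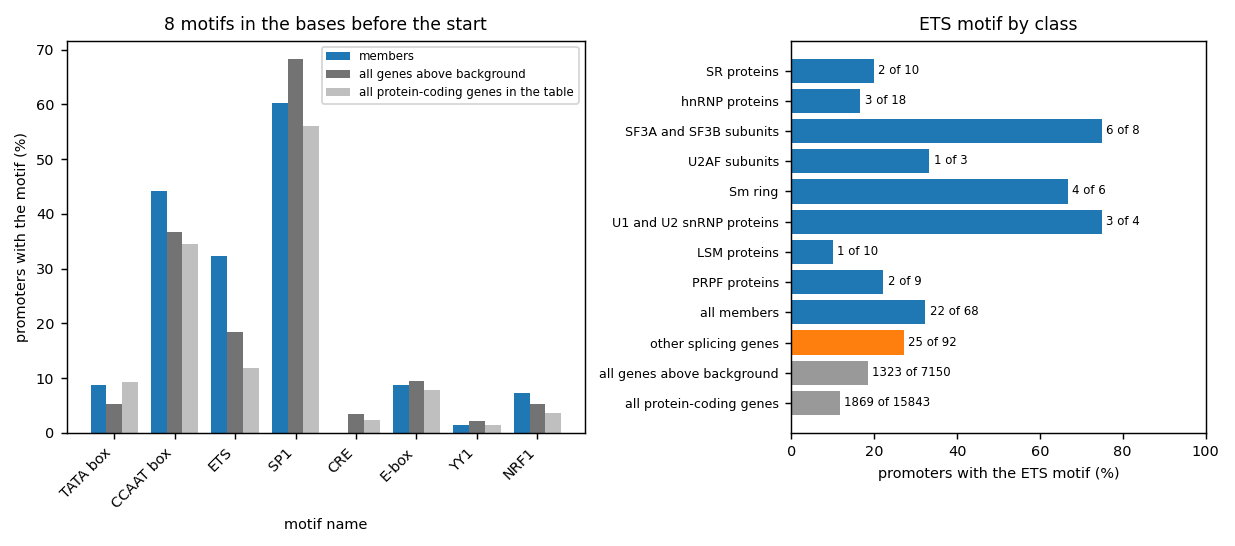
Left, share of promoters with each of 8 motifs (y axis, percent) for the members (blue), all genes above background (dark grey) and all protein-coding genes in the table (light grey). Right, share with the ETS motif (x axis, percent) for each member class (blue), the other splicing genes (orange) and all genes (grey), with the counts at the bars. The SF3A and SF3B class has 6 of 8, the U1 and U2 snRNP class 3 of 4 and the hnRNP class 3 of 18.

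Other genes of splicing were taken from 9 lists. Of 125 listed genes 107 were measured and 95 were above background, against 51.7% of all measured genes. At the 99th-percentile level 44 of the 107 were above, against 12.2% of all genes. The partners of the U4/U6 and U5 snRNPs were above in 11 of 11 cases, including the GTPase EFTUD2 (11.03 and 10.86) and the helicase DDX23 (9.31 and 9.48), as were 11 of 11 genes of U1 and the minor spliceosome, including SNRNP70 (10.07 and 10.10) and RNPC3 (8.99 and 8.94). All 10 branch point partners, such as SF1 (9.60 and 9.49) and PUF60 (10.42 and 10.43), were above. All 14 genes of snRNP assembly, such as GEMIN2 (10.02 and 10.07) and DDX20 (9.97 and 10.05), and both measured exon junction genes, EIF4A3 (11.76 and 11.63) and RBM8A (10.97 and 10.96), were above background too.

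Of the 16 genes of the catalytic steps 15 exceeded background, for instance CDC5L (10.86 and 10.68) and PLRG1 (11.36 and 11.38), the exception being XAB2 (4.44 and 4.41 by 1 probe set). Kinases that phosphorylate SR proteins were above in 7 of 8 cases, including SRPK1 (10.72 and 10.75) and SRPK2 (9.97 and 10.04), with SRPK3, known from muscle, below background on both arrays. Of 24 general splicing regulators 23 exceeded background, among them PTBP1 (12.29 and 12.16), which represses exons of neurons, and PTBP3 (11.21 and 11.18). RBFOX2 was not above (5.35 and 4.63).

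Regulators known from neurons, muscle and epithelium formed the only list that was mostly below background, with 2 of 11 above. PTBP2, the neuronal relative of PTBP1, was above at 7.56 and 7.32, and NOVA2 at 6.33 and 5.86. The neuronal factors RBFOX1 (4.06 and 4.09), NOVA1 (3.86 and 4.03) and ELAVL2 (4.21 and 4.39) and the epithelial factor ESRP1 (4.06 and 4.16) were below background on both arrays.

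**Figure D5:**
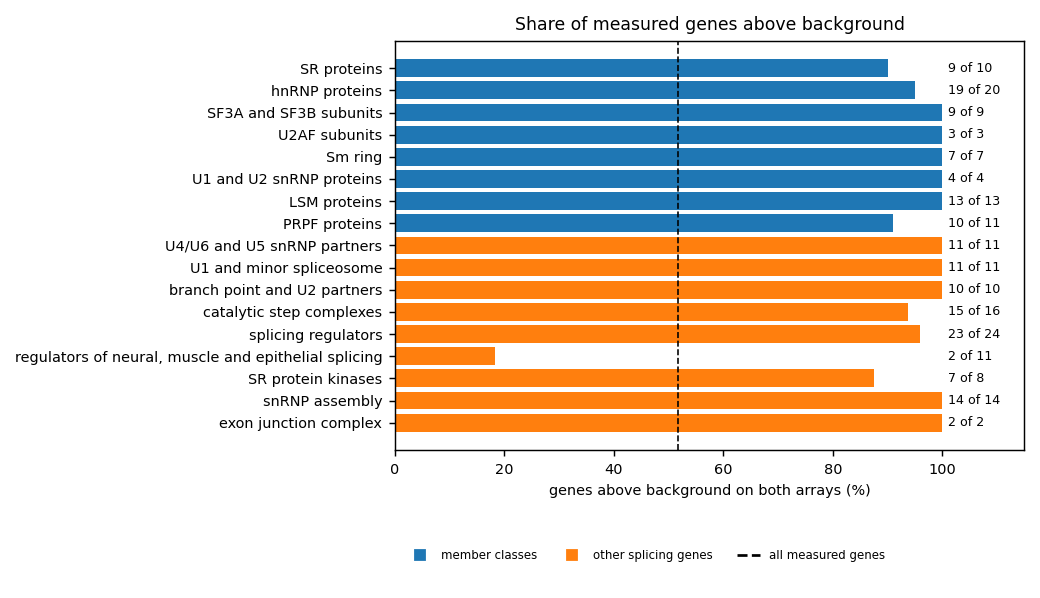
Share of measured genes above background on both arrays (x axis, percent) for the 8 member classes (blue) and the 9 lists of other splicing genes (orange), with the counts at the right and a dashed line at 51.7% for all measured genes. The list of neural, muscle and epithelial regulators, with 2 of 11, is the only bar left of the line.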

How the data were processed

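Messenger RNA was measured in 2 samples of 1 cell line on 1 array each. The intensities deposited by the authors were made with RMA, per the submitters' processing notes, a method that corrects background, gives the arrays a common distribution and summarises each probe set. The version and genome build are not given in the sources used here. They are linear, and log2 was computed here from the deposited values. RMA gives no detection call. Of 36289 probe sets 29493 had 1 symbol, 1407 several and 5389 none; others on the array were not used here. Names came from the platform annotation, and Entrez IDs gave current symbols through a RefSeq gene table (GRCh38.p14). A gene was its brightest probe set. The members and lists were chosen with earlier results of these data known. Both arrays are given for key members of each class, for each member not above background and for the 5 probe sets with the largest difference in each direction among those above background on both arrays; the 6 members with the largest range between probe sets, the initial measured genes of each list and, for at most 4, those not above background were also named; further members were named as examples or exceptions after their values were seen. The promoter motifs, the emphasis on the ETS core and the promoters printed were chosen after the data were seen. No test between groups was possible, and no p-values are given. Having only 2 arrays limits precision. Protein sequences were not analysed here. The scripts were tested on simulated data. Python 3.11.15, numpy 2.4.6, pandas 2.3.3 and matplotlib 3.10.9 were used.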

Additional observations from a re-analysis of the deposited data

How the results depend on the processing

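Under the alternatives 90 recomputed values stayed close to those reported and 15 did not. Close means counts within 1.5 times, and medians within the spread between the arrays. The rule compares raw counts, so a fall from 74 to 50 of 77 members is close. A change from 9 of 9 to 4 of 4 SF3A and SF3B subunits is not. The 90 also include 13 values from updating symbols by Entrez ID, which changed none of them. With replicate 1 or replicate 2 left out, 12 values each stayed close, and the count of member genes above background was 74 again. That count was fixed in advance. The probe sets were still chosen by the mean of both arrays, and no member's call differed between the arrays. With the 99th in place of the 95th percentile of the tissue-restricted genes (a level of 10.37 and 10.43), 50 of 77 members were above, against 12.2% of all genes; the counts were 80 of 169 member probe sets, 44 of 107 other splicing genes, 5 of 9 SF3A and SF3B subunits, 7 of 13 LSM proteins and 2 of 11 PRPF proteins. When probe sets ending in _x_at or _s_at were left out, fewer genes were measured and the level was 5.18 and 5.29. Then 47 of 53 members were above background, against 47.7% of all genes. The counts were 59 of 76 member probe sets, 59 of 75 other splicing genes, 4 of 5 SR proteins and 12 of 15 hnRNPs. For the SF3A and SF3B subunits the count was 4 of 4, and for the PRPF proteins 5 of 7. HNRNPC, HNRNPLL and PRPF31 joined the 3 members not above. The median member signal was 10.07 in that setting and 10.03 when a gene's probe sets were averaged, where HNRNPLL and LSM14B were not above background. At a minimum difference of 0.25 between the arrays, 1 member (HNRNPUL1) differed. The ETS core without its last letter was in 26 of 68 member promoters, 28.2% of those of genes above background and 19.3% of all, a setting chosen after seeing the data.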
